A study of Rattus norvegicus with 72 samples.

Results

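The nuclear-encoded subunits of the mitochondrial respiratory chain and of ATP synthase were followed in rat mammary gland, liver and adipose tissue. Members were all genes whose platform symbol starts with Ndufa, Ndufb, Ndufc, Ndufs, Ndufv, Sdha, Sdhb, Sdhc, Sdhd, Uqcr, Cox4i, Cox5, Cox6, Cox7, Cox8 or Atp5, without the Ndufaf assembly factors. The prefixes found 84 genes among the 14217 genes that had a probe set with a single symbol, and 94 probe sets among 31042. Each gene is represented by its brightest probe set over the 60 standard gravity and hypergravity arrays, and no value of a comparison entered the choice. Complex I holds 36 members, complex II 8, complex III 7, complex IV 17 and ATP synthase 16. The prefixes also bring in the complex II assembly factors Sdhaf1 to Sdhaf4, the pseudogene Cox6c-ps1 and the ATP synthase inhibitor Atp5if1. They are counted with complex II, complex IV and ATP synthase throughout. Levels of different probe sets were not compared with each other. No probe set was removed for low signal, so all 84 members were tested in every comparison.

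The study measured RNA of lactating and pregnant rats in hypergravity and at standard gravity, with 5 arrays for each of the 12 combinations of tissue, stage and gravity. A further 12 mammary arrays of pregnant rats came from microgravity, a flight control and a vivarium control, with 4 arrays each. Array codes give the tissue letter, the rat and the gravity, so that M216S is a mammary array at standard gravity, and the same 20 rats gave all 3 tissues. The strain, age, day of gestation or lactation, hypergravity load and housing of the animals are not given in the sources used here. Microgravity arrays are described only within their own set, because their array medians lay at 4.87 to 5.02 log2 units, against 4.32 to 4.56 in the other arrays.

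Electrons from NADH enter the chain at complex I and those from succinate at complex II. Coenzyme Q passes them to complex III, and cytochrome c passes them on to complex IV, which reduces oxygen. Complexes I, III and IV pump protons across the inner mitochondrial membrane, and ATP synthase uses the returning protons to make ATP. Several complex IV subunits exist as tissue isoforms, with Cox6a2, Cox7a1 and Cox8b known as the heart and muscle forms in rodents. Milk secretion is known as a process with a high demand for ATP and for carbon from the citric acid cycle. The factors NRF-1 and GABP (also called NRF-2) are known to act at promoters of many respiratory genes.

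Promoter windows of 250 bases before the gene start were available from RefSeq (GRCr8) for 76 of the 84 members. Exact matches to 4 short motifs were searched on both strands. The comparison set was every window available, with no choice by gene type or by presence on the array. Each member gave 1 window. The sets are thus unlike, and the shares are a description. The GABP motif CCGGAAG was present in 22 of the 76 windows (28.9%), against 7.27% of all 33469 windows. The NRF-1 motif GCGCATGCG was present in 5 (6.58%), against 1.35% of all windows. The YY1 motif AAGATGGC was present in 2 (2.63%), against 1.63%, and the estrogen-related receptor motif TCAAGGTCA in 1 (1.32%), against 0.388%. At least 1 motif was present in 26 members' windows, and the matching share of all windows was not counted. A match describes the letters only and is not a binding site shown in these rats. The windows below show a complex I subunit that was higher in lactating mammary gland, a complex III subunit that was lower there in hypergravity, and the paired isoforms Cox8a (general form) and Cox8b (muscle form). Capitals mark CCGGAAG or its reverse complement CTTCCGG. The Ndufa13 window is chr16:19560276-19560525 on the plus strand, the Uqcrc2 window chr1:184598990-184599239 on the plus strand, the Cox8a window chr1:213833624-213833873 on the minus strand and the Cox8b window chr1:205408274-205408523 on the minus strand, all in GRCr8 and written 5′ to 3′.
Ndufa13: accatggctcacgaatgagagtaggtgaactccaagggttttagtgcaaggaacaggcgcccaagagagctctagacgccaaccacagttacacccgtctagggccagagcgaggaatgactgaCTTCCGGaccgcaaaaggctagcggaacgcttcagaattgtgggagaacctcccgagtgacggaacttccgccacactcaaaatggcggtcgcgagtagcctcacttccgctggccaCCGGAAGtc
Uqcrc2: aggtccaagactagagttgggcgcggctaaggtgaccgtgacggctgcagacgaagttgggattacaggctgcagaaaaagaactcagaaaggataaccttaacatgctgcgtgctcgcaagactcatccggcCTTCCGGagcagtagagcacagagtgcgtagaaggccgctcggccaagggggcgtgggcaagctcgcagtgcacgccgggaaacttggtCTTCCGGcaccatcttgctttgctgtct
Cox8a: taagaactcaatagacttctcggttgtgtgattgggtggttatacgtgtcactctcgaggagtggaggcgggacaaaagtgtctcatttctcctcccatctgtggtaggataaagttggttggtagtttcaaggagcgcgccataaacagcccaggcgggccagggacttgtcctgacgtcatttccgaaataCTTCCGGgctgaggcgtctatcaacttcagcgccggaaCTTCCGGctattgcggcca
Cox8b: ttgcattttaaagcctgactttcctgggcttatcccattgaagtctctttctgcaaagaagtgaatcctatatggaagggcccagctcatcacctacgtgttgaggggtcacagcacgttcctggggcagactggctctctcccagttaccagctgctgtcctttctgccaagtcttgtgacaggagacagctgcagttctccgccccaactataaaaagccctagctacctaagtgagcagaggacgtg
Ndufa13, Uqcrc2 and Cox8a each carry the GABP motif 2 times, and the Cox8b window carries none of the 4 motifs. Sdhaf2 is the only other member with 2 matches to the GABP motif, and most of the 76 windows carry none. The windows of Ndufa13, Uqcrc2 and Cox8a are thus among the richest in this motif and are not typical of the members.

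Tissue labels were checked against markers. Mean signal of milk protein genes was at least 12.63 in mammary arrays, that of hepatocyte genes at least 11.88 in liver arrays and that of white adipocyte genes at least 9.51 in adipose arrays, once M210H and A210H were set aside. These 2 arrays of rat 210 carried each other's tissue markers and were left out, which leaves 4 lactating hypergravity arrays in mammary gland and in adipose tissue. Another 8 arrays carried markers of a further tissue, defined by a mean of skeletal muscle or hepatocyte markers that exceeded the typical (median) array of that tissue by over 2 log2 units. Skeletal muscle markers were above the array median in 13 to 16 of 16 cases on A217H, A48S, M212H, M50H, VIVA and VIVC. Hepatocyte markers were above it in 11 of 11 cases on M56H and in 7 of 11 on M52S. Among standard gravity and hypergravity arrays, the nearest below this limit were M44S, with 9 of 16 muscle markers above the array median (mean 5.30), and M57S, with 6 of 11 hepatocyte markers (mean 5.31). In tissue pieces, fewer cells of a type and less RNA per cell cannot be told apart.

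Lactating and pregnant mammary gland were compared first at standard gravity. The chain did not move as a block. Of the 84 members, 19 were higher in lactating gland and 10 lower at an adjusted p under 0.05 (limma, Benjamini-Hochberg over 31042 probe sets), while 16.8% of all probe sets were called higher and 17.3% lower. Among all 14217 genes, 14.4% were higher and 25.7% lower. The median log2 difference was 0.12 over the members, of which 47 had a positive value, against -0.10 over all genes. By complex, 9 of 36 members were higher and 2 lower in complex I, 1 and 3 of 8 in complex II, 1 and 1 of 7 in complex III, 4 and 3 of 17 in complex IV, and 4 and 1 of 16 in ATP synthase. Median differences were 0.19 in complex I, -0.37 in complex II, 0.21 in complex III, 0.02 in complex IV and 0.32 in ATP synthase. The complex II values include the assembly factors Sdhaf1 to Sdhaf4, and its 3 lower members were all assembly factors. Of its subunits, Sdhb and Sdhc had positive differences and Sdha and Sdhd negative ones, so the median does not describe the subunits alone.

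**Figure D1:**
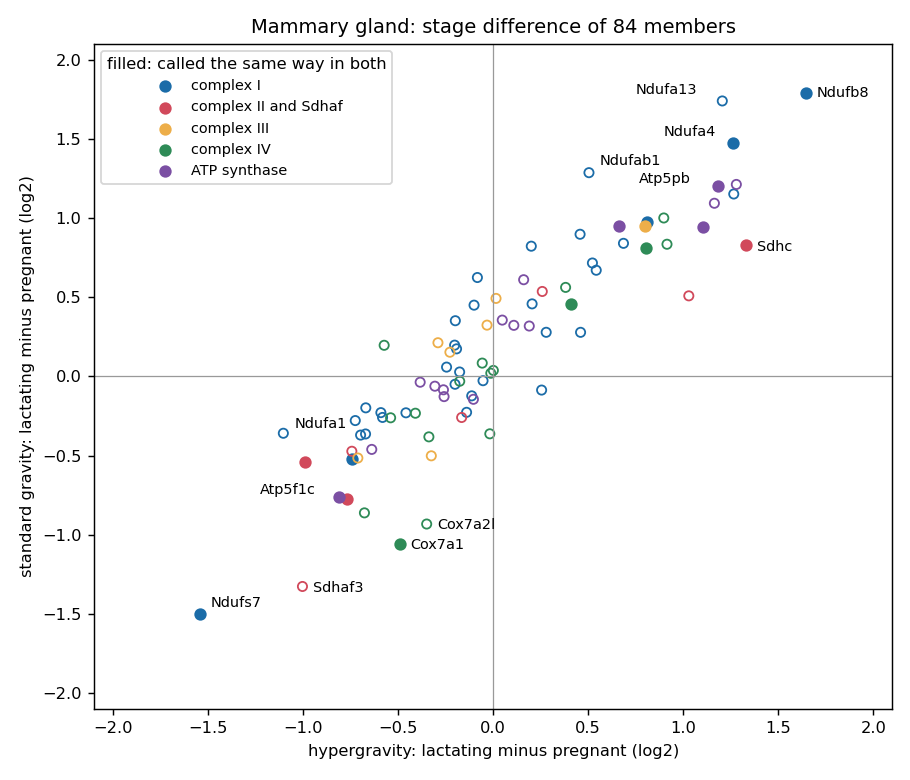
Log2 difference between lactating and pregnant mammary gland for each of the 84 members, in hypergravity (horizontal axis) and at standard gravity (vertical axis), coloured by complex. Filled points are the 16 members called in the same direction in both, 10 higher and 6 lower, and no member was called in opposite directions.

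Among complex I members, Ndufb8, an accessory subunit of the membrane arm (chr1:253357878-253362936, GRCr8), had 5.41, 5.12, 6.09, 5.94 and 5.42 log2 signal in lactating gland, against 5.05, 3.68, 2.90, 4.0 and 3.40 in pregnant gland. All lactating arrays lay above all pregnant arrays, and the pregnant array M42S lay nearest to them. Ndufb8 was 3.45-fold higher (log2 1.79, SE 0.44, adjusted p = 0.00423), with pregnant values partly under the array median and so approximate. Ndufa13, an accessory subunit also known as GRIM-19 (chr16:19560526-19567500), had 8.81, 8.84, 9.13, 9.0 and 8.99 in lactating gland, against 9.09, 7.34, 6.39, 6.54 and 6.71 in pregnant gland. The lactating arrays were close together, and M42S alone among pregnant arrays reached their range. Ndufa13 was 3.34-fold higher (log2 1.74, SE 0.49, adjusted p = 0.00945). Ndufa4 (chr4:40968391-40975559), which is named for complex I and has since been assigned to complex IV, had 11.09, 10.93, 11.41, 11.36 and 11.20 in lactating gland, against 10.93, 9.66, 9.29, 9.53 and 9.23 in pregnant gland. The highest pregnant array was again M42S, just under the lowest lactating array. The log2 difference of Ndufa4 was 1.47 (SE 0.37, adjusted p = 0.00447). Ndufab1, the mitochondrial acyl carrier protein, averaged 10.17 ± 0.20 in lactating gland and 8.88 ± 0.58 in pregnant gland (SD, n = 5 each) and was 2.44-fold higher (adjusted p = 0.000358).

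Ndufs7, a core subunit that carries an iron-sulfur cluster (chr7:10103226-10110862), went the other way within the same complex. It had 8.29, 8.83, 8.40, 8.64 and 8.75 in lactating gland, against 9.74, 10.21, 10.15, 10.22 and 10.09 in pregnant gland. Every lactating array lay well below every pregnant array, M42S included. Ndufs7 fell by 1.5 on the log2 scale (SE 0.26, adjusted p = 0.000226). Ndufb3, an accessory subunit, fell by 0.52 on the same scale.

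In complex II, 1 membrane anchor was higher and 3 assembly factors were lower. Sdhc, 1 of the anchor subunits (chr13:86077133-86098025), had 9.88, 9.49, 10.05, 9.92 and 9.87 in lactating gland, against 9.39, 9.03, 8.63, 9.10 and 8.93 in pregnant gland. The groups did not overlap, and the log2 difference was 0.83 (SE 0.26, adjusted p = 0.0176). The catalytic flavoprotein Sdha did not pass (log2 -0.47, adjusted p = 0.063), nor did the iron-sulfur subunit Sdhb (0.51, adjusted p = 0.29) or the other anchor Sdhd (-0.26, adjusted p = 0.216). The dimmer of the 2 Sdhd probe sets was called with the opposite sign (0.58, adjusted p = 0.022), so the direction of Sdhd is uncertain. Sdhaf2, which inserts the flavin into Sdha, averaged 8.06 ± 0.07 in lactating gland and 8.83 ± 0.04 in pregnant gland (SD, n = 5 each) and fell by 0.77 (adjusted p = 0.00209). The dimmer Sdhaf2 probe set had a log2 difference of -0.08 and did not pass (limma, adjusted p = 0.795), so the fall rests on 1 probe set. Sdhaf3, an assembly factor of the iron-sulfur subunit, was at 4.30 ± 0.20 in lactating gland, near the array median, and at 5.63 ± 0.65 in pregnant gland (log2 -1.33, adjusted p = 0.0244). Sdhaf1 fell by 0.54, and Sdhaf4 had a log2 difference of 0.54 and did not pass (adjusted p = 0.143).

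In complex III, Uqcrfs1, the Rieske iron-sulfur protein, had 9.51, 9.23, 9.68, 9.64 and 9.11 in lactating gland, against 9.11, 8.37, 8.64, 8.54 and 7.77 in pregnant gland. The pregnant array M42S lay just under the lowest lactating array, and the groups did not overlap. Uqcrfs1 was 1.93-fold higher (adjusted p = 0.00332). In complex IV, Cox5a, which sits on the matrix side, had 12.25, 12.13, 12.39, 12.35 and 12.09 in lactating gland, against 11.91, 11.55, 11.32, 11.29 and 11.10 in pregnant gland. The groups stood apart by a small gap, with a log2 difference of 0.81 (adjusted p = 0.00272). Cox7c, a small membrane subunit, averaged 9.79 ± 0.15 in lactating gland and 8.79 ± 0.54 in pregnant gland (log2 1.00, adjusted p = 0.0396), with overlap at M42S.

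Cox7a2l, also known as SCAF1 for its part in supercomplex assembly (chr6:16936574-16950797), had 9.33, 9.22, 9.75, 9.46 and 9.69 in lactating gland, against 10.36, 10.52, 10.54, 10.56 and 10.12 in pregnant gland. The groups did not overlap, and Cox7a2l fell by 0.93 on the log2 scale (SE 0.13, adjusted p = 3.54e-05). Cox6b2, the testis isoform, fell by 0.86 (adjusted p = 0.0468). The muscle isoform Cox7a1 fell by 1.06 (adjusted p = 1.97e-05) with both groups under the array median, so that its size is approximate. The general isoforms Cox4i1 (log2 0.04, adjusted p = 0.948), Cox6a1 (0.83, adjusted p = 0.0708), Cox6b1 (-0.36, adjusted p = 0.447) and Cox8a (0.08, adjusted p = 0.719) did not pass.

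In ATP synthase, Atp5pb, subunit b of the peripheral stalk (chr2:196112459-196123737), had 10.60, 10.44, 11.02, 11.03 and 10.65 in lactating gland, against 10.33, 9.64, 9.25, 9.49 and 9.04 in pregnant gland. All lactating arrays lay above all pregnant arrays. Atp5pb was 2.3-fold higher (log2 1.20, SE 0.27, adjusted p = 0.00224). The stalk subunits Atp5pf (log2 0.95) and Atp5pd (0.94) and the c-ring gene Atp5mc3 (0.32) were also called higher. Atp5f1c, the gamma subunit of the rotor, fell by 0.76. The inhibitor Atp5if1 did not pass (log2 -0.14, adjusted p = 0.675).

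Lactating mammary arrays had a smaller spread than pregnant arrays, in these members and over all genes. The median SD over members was 0.200 in lactating gland and 0.299 in pregnant gland at standard gravity, and 0.181 and 0.488 in hypergravity. The number of members with an SD over 0.5 was 0 in lactating gland and 18 in pregnant gland at standard gravity, and 4 and 40 in hypergravity. Over all genes the median SD was 0.241 in lactating gland and 0.276 in pregnant gland at standard gravity, and 0.217 and 0.418 in hypergravity. The share of all genes with an SD over 0.5 was 10.4% and 13.1% at standard gravity, and 8.76% and 39.7% in hypergravity. These spreads include the pregnant arrays M52S, M50H and M56H and the lactating array M212H, which carried markers of a further tissue. They were not computed without those arrays. Markers of other cells also differed by stage. The mean signal of 8 macrophage markers was 8.12 to 8.45 in lactating gland and 9.27 to 9.80 in pregnant gland at standard gravity, and that of 9 luminal epithelium markers was 8.54 to 8.72 and 9.0 to 9.80. Of these markers 6 of 8 and 5 of 9 were called lower in lactating gland and 0 higher. Their part in the result was not tested. Without M52S and the other arrays that carried markers of a further tissue, 14 members were higher and 8 lower.

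The same comparison in hypergravity used other rats. There 11 members were higher and 17 lower in lactating gland, while 14.6% of all probe sets were called higher and 14.6% lower. Among all genes, 13.5% were higher and 21.2% lower, and the median difference was -0.10 over members and -0.11 over all genes. By complex, 3 members were higher and 8 lower in complex I, 2 and 3 in complex II, 1 and 1 in complex III, 2 and 2 in complex IV, and 3 and 3 in ATP synthase. Higher in both gravities were 10 members, which is 52.6% of the list at standard gravity and 90.9% of the list in hypergravity. They are Ndufa4, Ndufb8, Ndufc2, Sdhc, Uqcrfs1, Cox5a, Cox7b, Atp5pb, Atp5pd and Atp5pf. Lower in both were 6 members (60% and 35.3% of the lists), namely Ndufb3, Ndufs7, Sdhaf1, Sdhaf2, Cox7a1 and Atp5f1c. Over all genes the shared part was 53.8% and 57.2% of the lists of higher genes, and 58.7% and 71% of the lists of lower genes.

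Ndufb8 had 5.20, 5.64, 5.31 and 5.63 in lactating gland in hypergravity, against 3.43, 5.24, 4.64, 3.27 and 2.40 in pregnant gland. The pregnant array M55H reached the lactating range, and the log2 difference was 1.65 (SE 0.47, adjusted p = 0.0132). Ndufs7 had 8.35, 8.32, 8.44 and 8.79 in lactating gland, against 10.54, 10.36, 9.02, 10.72 and 9.45 in pregnant gland. No arrays overlapped, although M56H, the array with hepatocyte markers, came near, and Ndufs7 fell by 1.54 (SE 0.27, adjusted p = 0.000524). Ndufa1, an accessory subunit of the membrane arm, fell by 1.10 (adjusted p = 0.00437). Ndufa13 had a log2 difference of 1.20 and did not pass (adjusted p = 0.0886), and Cox7a2l had -0.35 (adjusted p = 0.0618).

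The subunits of succinate dehydrogenase moved in opposite directions in hypergravity. Sdha had 8.68, 9.29, 9.16 and 9.16 in lactating gland, against 10.12, 9.41, 9.16, 10.10 and 10.29 in pregnant gland. Only M56H among pregnant arrays came into the lactating range, and Sdha fell by 0.74 (SE 0.20, adjusted p = 0.00981). Sdhc had 9.71, 9.85, 9.77 and 9.77 in lactating gland, against 8.68, 8.81, 9.38, 7.71 and 7.65 in pregnant gland. The lactating arrays were nearly level and lay above every pregnant array, and Sdhc was 2.51-fold higher (adjusted p = 0.00157). Sdhb had 8.28, 8.54, 8.29 and 8.43 in lactating gland, against 7.65, 8.39, 8.03, 6.99 and 5.72 in pregnant gland. Here M55H overlapped and M60H was far below the rest, and the log2 difference was 1.03 (SE 0.36, adjusted p = 0.0409). Sdhaf1, which serves assembly of the iron-sulfur subunit, fell by 0.99 (adjusted p = 0.000659), with no overlap. Atp5pb (log2 1.18, adjusted p = 0.00505) and Atp5f1c (-0.81, adjusted p = 0.011) kept opposite signs within ATP synthase.

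**Figure D2:**
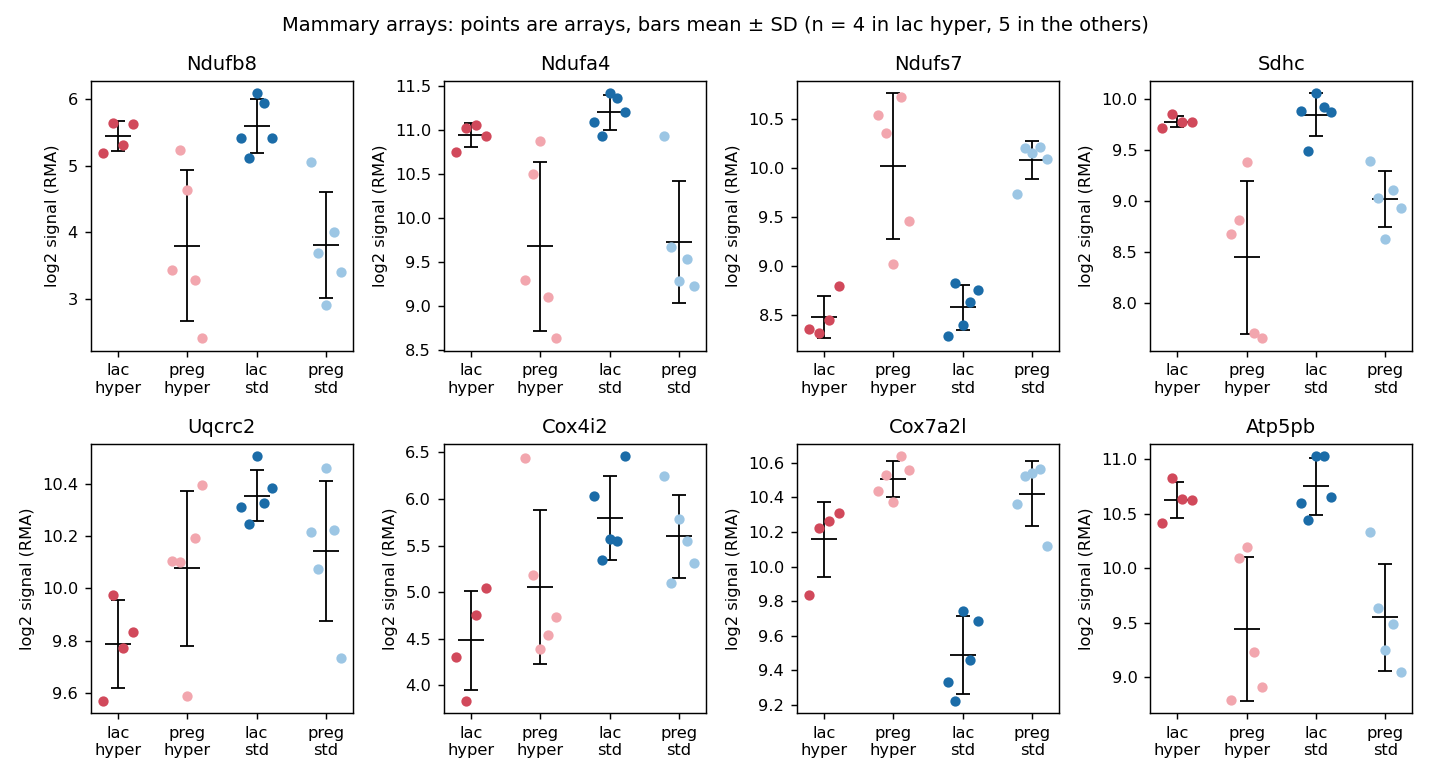
Log2 signal of 8 members on the mammary arrays, with lactating hypergravity, pregnant hypergravity, lactating standard gravity and pregnant standard gravity from left to right. Points are arrays and bars show the mean ± SD. Ndufb8, Ndufa4, Sdhc and Atp5pb lie higher and Ndufs7 lower in lactating gland in both gravities, and Cox7a2l lies lower in lactating gland at standard gravity.

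The 28 calls in hypergravity became 41 without M56H, the array with hepatocyte markers, 16 without M59H (5 higher and 11 lower), 17 without M203H (6 and 11) and 9 in a fit of only the groups compared. Without the arrays carrying markers of a further tissue, 11 members were higher and 14 lower. Macrophage marker means were 8.71 to 9.43 in lactating gland and 9.03 to 9.60 in pregnant gland, with 2 of 8 called higher and 4 lower, and their part in the result was not tested.

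Other mitochondrial gene lists give the setting of these members in the mammary gland at standard gravity, where 14.4% of all genes were higher and 25.7% lower in lactating gland. Of 38 assembly factors measured, 6 were higher and 7 lower in lactating gland, including Nubpl (log2 -1.33), which serves complex I, and Bcs1l (-1.27), which inserts the Rieske protein. Of 17 biogenesis regulators, 1 was higher and 8 were lower. These included Polrmt (-2.70), the mitochondrial RNA polymerase, the coactivator Ppargc1a (-1.88, adjusted p = 0.0029), Tfam (-0.83, adjusted p = 4.9e-05), which packages mitochondrial DNA, and Nrf1 (-0.70, adjusted p = 0.012). Nrf1 was at 3.67 to 4.50 in lactating gland and 4.59 to 4.96 in pregnant gland. Ppargc1a was at 4.07 to 5.23 in lactating gland. Array medians were 4.32 to 4.56, so the sizes of Nrf1 and Ppargc1a are approximate. Gabpb1, a subunit of GABP, was the member called higher (0.74, adjusted p = 0.0018). Of 16 beta oxidation genes, 0 were higher and 8 lower, with Acaa2 at -3.40 and Cpt1a at -2.76. Of 15 genes of pyruvate dehydrogenase and the citric acid cycle, 4 were higher and 2 lower, with citrate synthase Cs at 0.71. Of 13 electron carrier and coenzyme Q genes, 0 were higher and 3 lower, of 9 carriers and porins 1 was higher and 1 lower, and of 73 mitochondrial ribosomal proteins 13 were higher (17.8%) and 17 lower (23.3%), near the shares of all genes. In hypergravity, where 13.5% of all genes were higher and 21.2% lower, the counts were 5 higher and 13 lower for assembly factors, 1 and 8 for biogenesis regulators, 0 and 3 for beta oxidation, 0 and 5 for the citric acid cycle list, 1 and 4 for electron carriers, 3 and 0 for carriers and porins, and 8 and 21 for mitochondrial ribosomal proteins.

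The next comparison set lactating mammary gland in hypergravity against standard gravity. Only 1 member was called higher and 3 lower, while 4.49% of all probe sets were called higher and 4.94% lower. The 4 calls became 14 with array weights and 11 in a fit of only the groups compared. Cox7a2l had 9.84, 10.22, 10.26 and 10.31 in hypergravity, against 9.33, 9.22, 9.75, 9.46 and 9.69 at standard gravity. The groups did not overlap, and Cox7a2l was 1.59-fold higher (log2 0.67, SE 0.14, adjusted p = 0.00326). Cox7a2l was also among the 3 complex IV members that were lower in lactating gland at standard gravity, and the comparisons share the lactating standard gravity arrays. Uqcrc2, a core protein of complex III (chr1:184599240-184629804), had 9.57, 9.97, 9.77 and 9.83 in hypergravity, against 10.31, 10.25, 10.51, 10.33 and 10.38 at standard gravity. Hypergravity arrays lay below all standard gravity arrays, and Uqcrc2 fell by 0.57 (SE 0.16, adjusted p = 0.0265). Its dimmer probe set had a log2 difference of -0.70 and did not pass (adjusted p = 0.229).

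Ndufs1, the largest core iron-sulfur subunit of complex I, had 8.48, 8.58, 8.07 and 8.46 in hypergravity, against 8.91, 8.85, 9.11, 9.48 and 8.63 at standard gravity. The groups were close without overlap, and Ndufs1 fell by 0.60 (SE 0.17, adjusted p = 0.0296). Cox4i2, an isoform of subunit 4 known from lung and from low oxygen (chr3:161686193-161699605), had 4.31, 3.83, 4.75 and 5.04 in hypergravity, against 6.04, 5.35, 5.57, 5.55 and 6.46 at standard gravity. Hypergravity values were near the array median, so the size is approximate, and Cox4i2 fell by 1.31 (SE 0.37, adjusted p = 0.0295). Sdha had a log2 difference of -0.65 and did not pass (adjusted p = 0.0502). Over other settings Cox7a2l passed in all 17, with an adjusted p of at most 0.0201. Cox4i2 failed in 4 of 17 (adjusted p up to 0.116), Uqcrc2 in 6 (up to 0.101) and Ndufs1 in 9 (up to 0.411, with M210H kept).

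Across the whole list the hypergravity differences in lactating mammary gland leaned low. Of 84 members 12 had a positive value and the median was -0.18, against 7428 of 14217 genes and a median of 0.02. No ATP synthase member of 16 and 4 of 36 complex I members had a positive value, with medians of -0.18 and -0.26. Medians were -0.08 in complex II, -0.23 in complex III and -0.09 in complex IV. Leaving out 1 array at a time gave 11 to 19 positive members and medians of -0.22 to -0.15. Members share arrays, so these counts are a description. The 4 calls became 1 without M203H, which is then Cox7a2l alone, and 2 without any 1 of M212H, M217H, M214S or M219S. With M210H kept 2 were called, and without the arrays carrying markers of a further tissue 5. Luminal epithelium marker means were 9.37 to 10.22 in hypergravity and 8.54 to 8.72 at standard gravity, and macrophage marker means were 8.71 to 9.43 and 8.12 to 8.45. Of these markers 6 of 9 and 2 of 8 were called higher in hypergravity and 0 lower, and their part in the result was not tested. Of all genes 6.22% were higher and 6.23% lower in hypergravity. Of the neighbouring lists, 0 of 15 pyruvate dehydrogenase and citric acid cycle genes were higher and 7 lower (Pdhb -1.58, Pdha1 -1.05, Cs -0.72), and 5 of 16 beta oxidation genes were higher and 0 lower (Cpt1a 3.12, Acaa2 2.59). Assembly factors had 2 higher and 3 lower, electron carriers 1 and 2, biogenesis regulators 0 and 2, carriers and porins 1 and 0, and mitochondrial ribosomal proteins 0 and 3.

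In pregnant mammary gland, hypergravity against standard gravity gave 0 called members by limma, with 2 at an unadjusted p under 0.05 (2.38%, against 5.54% of all genes). Over all probe sets, 0.00322% were called higher and 0% lower. Cox4i2 had a log2 difference of -0.54 (adjusted p = 0.959) and Sdhc of -0.57 (adjusted p = 0.914). The difference of the stage effects between gravities, a contrast of all 4 mammary groups, called 0 members by limma, with 7 at an unadjusted p under 0.05 (8.33%, against 18.4% of all genes), while 2.18% of all probe sets were called higher and 1.85% lower. Ndufa12, an accessory subunit of complex I, came nearest, with a stage effect 0.71 log2 units lower in hypergravity (log2 -0.71, SE 0.20, adjusted p = 0.05001). Array weights, centring and the mean of probe sets each gave 1 call, and leaving out 1 array gave 0 to 2, with 2 without M56H. The stage effect of Cox7a2l differed by 0.58 (adjusted p = 0.101) and that of Uqcrc2 by -0.50 (adjusted p = 0.265).

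Liver members did not pass in any of the 5 liver comparisons. Lactating against pregnant liver gave 0 calls at standard gravity, where 0.341% of all probe sets were called higher and 0.28% lower, and 0 in hypergravity, where 1.22% were called higher and 2.01% lower. Hypergravity against standard gravity gave 0 calls in lactating liver (background 0.0934% higher and 0.312% lower) and 0 in pregnant liver (0.058% and 0.0451%). The difference of stage effects gave 0 calls (0.0515% and 0.0741%). Members at an unadjusted p under 0.05 numbered 4, 17, 26, 2 and 7 in these 5 limma comparisons. These are 4.76%, 20.2%, 31%, 2.38% and 8.33% of the members, against 11.9%, 18.9%, 14.4%, 8.84% and 11.8% of all genes. In hypergravity, Sdhaf1 was nearest to the threshold by stage (log2 -0.68, SE 0.19, adjusted p = 0.0508), and Atp5f1b, the catalytic beta subunit, had 11.88, 12.02, 11.92, 12.08 and 12.07 in lactating liver, against 11.72, 11.70, 11.62, 11.72 and 11.73 in pregnant liver. The Atp5f1b groups did not overlap but the difference was small (log2 0.30, SE 0.09, adjusted p = 0.0742). In this comparison 1 to 3 members passed under 5 other settings and 2 passed without L210H.

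In lactating liver, 76 of 84 members had a positive hypergravity difference, with a median of 0.21, against 7415 of 14217 genes and a median of 0.01. All 16 ATP synthase members, 32 of 36 in complex I, 5 of 8 in complex II, 7 of 7 in complex III and 16 of 17 in complex IV were positive. The complex II subunits Sdha, Sdhb, Sdhc and Sdhd were all positive, and the exceptions there were the assembly factors Sdhaf1, Sdhaf3 and Sdhaf4. Atp5pf, a stalk subunit of ATP synthase, had 11.17, 11.15, 10.77, 10.90 and 10.92 in hypergravity, against 10.71, 10.26, 10.64, 10.58 and 10.50 at standard gravity. Every hypergravity array lay above every standard gravity array, yet the difference did not pass (log2 0.44, SE 0.13, adjusted p = 0.145). Cox4i1, the general form of subunit 4, had 10.65, 10.45, 10.39, 10.56 and 10.56 in hypergravity, against 10.17, 10.22, 10.17, 10.03 and 10.34 at standard gravity. The groups did not overlap here either (log2 0.33, SE 0.10, adjusted p = 0.151). Leaving out 1 array at a time gave 75 to 80 positive members and medians of 0.17 to 0.26. Macrophage marker means were 9.05 to 9.21 in hypergravity and 9.02 to 9.23 at standard gravity.

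Adipose members also passed in 0 comparisons. For lactating against pregnant tissue the background was 0.00322% called higher and 0% lower at standard gravity, and 0% and 0% in hypergravity. It was 0% and 0% as well for hypergravity against standard gravity in lactating rats, for the same in pregnant rats, and for the difference of stage effects. Members at an unadjusted limma p under 0.05 numbered 1, 3, 1, 0 and 1, at most 3.57% of the members, against 6.12%, 4.31%, 2.38%, 3.89% and 3.52% of all genes. In lactating adipose tissue, 81 of 84 members had a positive hypergravity difference with a median of 0.26, against 7241 of 14217 genes and a median of 0.00. The 36 complex I members, the 16 of ATP synthase and the 7 of complex III were positive without exception, with medians of 0.30, 0.25 and 0.29. Leaving out 1 array at a time gave 74 to 81 positive members and medians of 0.16 (without A206H) to 0.35 (without A203H). The rats are those of the liver arrays except rat 210, so the tissues are not independent. The mean over members was 9.44 ± 0.25 in hypergravity (n = 4) and 9.15 ± 0.26 at standard gravity (SD, n = 5), and the arrays of the groups overlapped. Macrophage marker means were 9.17 to 10.28 in hypergravity and 10.003 to 10.78 at standard gravity, and skeletal muscle marker means were 3.92 to 10.20 (highest on A217H) and 3.88 to 4.01. Their part in the result was not tested, and without the arrays carrying markers of a further tissue 80 members were positive with a median of 0.33.

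**Figure D3:**
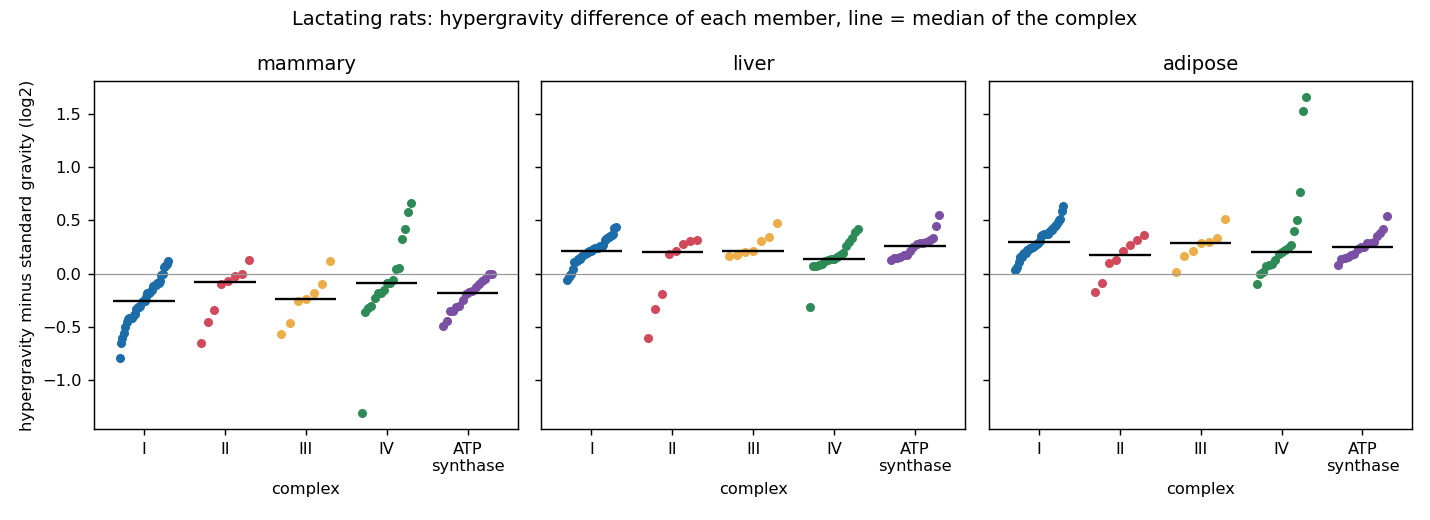
Log2 difference between hypergravity and standard gravity in lactating rats for every member, by complex, in mammary gland, liver and adipose tissue, with lines at the median of each complex. Of 84 members, 12 lie above 0 in mammary gland, 76 in liver and 81 in adipose tissue, and 4, 0 and 0 members were called.

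Cox8b and Cox6a2, the muscle isoforms of complex IV, ranged more widely over adipose arrays than any group difference. Cox8b (chr1:205406813-205408273) was at 11.16 on A48S and 9.37 on A217H, which also had 12.61 and 11.17 of Ckm, the muscle creatine kinase, and 11.56 and 8.91 of Cox6a2. Cox8b was also at 8.21, 8.04, 7.19 and 7.07 on A201S, A202S, A212H and A206H. On these 4 arrays Ucp1, the uncoupling protein that marks brown adipocytes, was at 7.61, 8.73, 6.01 and 5.14, Ckm at 3.28 to 3.86 and Cox6a2 at 3.01 to 4.0. Of 7 brown adipocyte markers, 3 were above the array median on each of these 4 arrays and 4 were not, against 2 or 3 above it on the other adipose arrays. Acta1, a skeletal muscle actin, was at 7.39 on A206H, where 4 of 16 muscle markers were above the array median. It was at 3.21, 2.73 and 3.04 on A201S, A202S and A212H, and at 6.20 on A44S, where Cox8b was at most 3.49. A52S had 5.29 of Cox8b with Ucp1 at 5.03, A57S had 4.85 with Ucp1 at 3.93, and Cox8b was at 2.69 to 3.49 on the other adipose arrays, where Ucp1 was at 3.51 to 4.11. On the 6 arrays with the most Cox8b, either Ckm and Cox6a2 or Ucp1 was high. Its group differences had large errors and did not pass, such as 1.53 (SE 1.61) for hypergravity against standard gravity in lactating tissue and 3.48 (SE 1.61) for lactating against pregnant tissue in hypergravity. In mammary gland Cox8b was at 6.94 on M50H and 4.84 on M212H, both of which carried muscle markers.

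**Figure D4:**
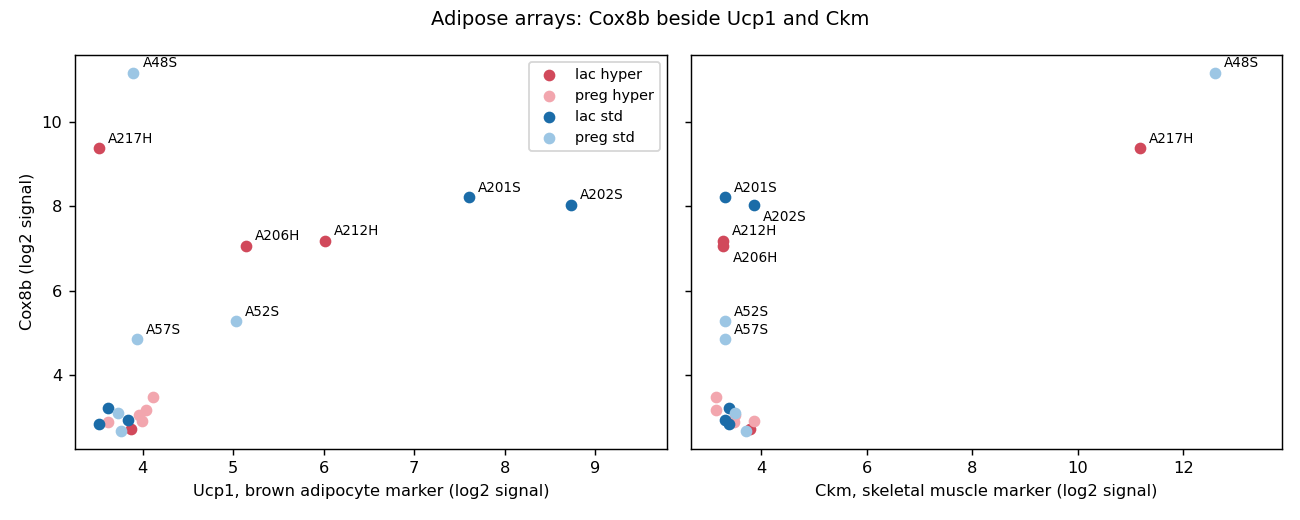
Log2 signal of Cox8b (vertical axis) beside that of Ucp1, a brown adipocyte marker, and of Ckm, a skeletal muscle marker (horizontal axes), on 19 adipose arrays coloured by group. A48S and A217H are high in Cox8b and Ckm, and A201S, A202S, A212H and A206H are high in Cox8b and Ucp1.

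In the microgravity set, mammary members did not pass. Microgravity against flight control gave 0 calls by limma, with 2 at an unadjusted p under 0.05 (2.38%, against 15.1% of all genes), while 0.271% of all probe sets were called higher and 0.0966% lower. Microgravity against vivarium gave 0, with 2 at an unadjusted p under 0.05 (2.38%, against 11.1% of all genes) and a background of 0.319% and 0.174%. Flight control against vivarium gave 0, with 3 at an unadjusted p under 0.05 (3.57%, against 9.78% of all genes) and a background of 0% and 0.00322%. The comparisons share arrays. Cox4i1 had 9.92, 9.9995, 9.86 and 9.88 in microgravity, against 9.37, 9.83, 9.84 and 9.63 in the flight control. The groups did not overlap, but the gap was small (log2 0.24, adjusted p = 0.387). Cox6b2 had 6.24, 6.38, 5.89 and 6.46 in microgravity, against 7.02, 7.55, 6.20 and 7.08 in the flight control, with an overlap at the lowest control array (log2 -0.72, adjusted p = 0.257). Cox7a1 had a log2 difference of -0.88 between microgravity and vivarium (adjusted p = 0.159). Cox8b (-1.67, adjusted p = 0.518) and Cox6a2 (-1.47, adjusted p = 0.606) had large differences from vivarium, where VIVA and VIVC carried muscle markers and had 6.63 and 6.55 of Cox8b, against 3.03 and 2.73 on the other vivarium arrays. The median SD over members was 0.116 in microgravity, 0.211 in the flight control and 0.0892 in vivarium.

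Tissues were compared at standard gravity in a fit of 58 arrays. Adipose RNA was extracted with another kit than mammary gland and liver RNA. In comparisons with adipose tissue, tissue and extraction cannot be told apart. In lactating rats, 8 members were higher and 8 lower in mammary gland than in liver (background 19.6% and 15.8%), 8 higher and 4 lower in mammary gland than in adipose tissue (14.8% and 15.1%), and 7 higher and 8 lower in liver than in adipose tissue (15.1% and 17.9%). In pregnant rats, 11 were higher and 31 lower in mammary gland than in liver (25.1% and 25.3%), 8 higher and 27 lower than in adipose tissue (20.9% and 20.4%), and 8 higher and 8 lower in liver than in adipose tissue (17.7% and 18.2%). Median differences of pregnant mammary gland were -0.29 from liver and -0.25 from adipose tissue, against 0.05 and 0.04 over all genes. These groups include M52S, which carried hepatocyte markers, and A48S, which carried skeletal muscle markers. The median SD over members was 0.558 in pregnant adipose tissue, 0.299 in pregnant mammary gland and 0.190 in pregnant liver. Over all genes it was 0.394, 0.276 and 0.258. Centring each array on its median shifts all differences of mammary gland from liver by -0.11 in lactating and -0.14 in pregnant rats, and those of liver from adipose tissue by 0.14 and 0.13. The lower members of pregnant mammary gland against liver comprised 15 of complex I, 2 of complex II, 3 of complex III, 4 of complex IV and 7 of ATP synthase.

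Tissue isoforms and the inhibitor stood out in size. Cox4i2 had 6.04, 5.35, 5.57, 5.55 and 6.46 in lactating mammary gland, against 3.10, 3.25, 2.83, 3.41 and 3.13 in liver and 4.27, 3.86, 4.32, 4.0 and 5.12 in adipose tissue. Mammary arrays lay above all others, and liver and most adipose values were under the array median. The log2 difference of mammary gland was 2.65 from liver (SE 0.35, adjusted p = 8.21e-09) and 1.48 from adipose tissue (adjusted p = 0.000582). In pregnant rats the differences were 2.31 and 1.53. The order against adipose tissue did not hold for Cox4i2 in lactating rats in hypergravity. There the mammary arrays, given above, all lay below the adipose mean of 5.08 ± 0.65 (SD, n = 4), and the tissues were not tested. Atp5if1, which blocks ATP hydrolysis by the synthase (chr5:150022960-150026677), had 7.19, 7.32, 7.43, 7.51 and 7.85 in lactating mammary gland, against 4.82, 5.32, 5.40, 4.94 and 5.97 in liver and 5.66, 6.06, 5.61, 5.40 and 6.70 in adipose tissue. The mammary arrays again lay above all liver and adipose arrays. The differences were 2.17 from liver (SE 0.25, adjusted p = 2.17e-10) and 1.58 from adipose tissue (adjusted p = 9.43e-07). Atp5if1 has 3 probe sets, and these values are from the brightest.

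Cox6b2 was the member with the largest difference between liver and adipose tissue. It had 4.04, 4.55, 4.98, 3.57 and 4.53 in lactating liver, against 7.33, 8.05, 7.12, 6.81 and 7.90 in adipose tissue. The groups were far apart (log2 -3.11, SE 0.33, adjusted p = 3.36e-11), and in pregnant rats the difference was -3.16. Liver values of Cox6b2 lay around or under the array median, so the sizes are approximate. Mammary gland was 2.21 log2 units lower than adipose tissue in lactating rats (log2 -2.21, adjusted p = 3.62e-07). Ndufa6, an accessory subunit of complex I, was lower in mammary gland than in liver (-1.65, adjusted p = 9.28e-08) and higher in liver than in adipose tissue (1.51, adjusted p = 7.1e-07) in lactating rats. Sdhaf2 was lower in mammary gland than in adipose tissue (-1.97, adjusted p = 8.45e-13). This value is that of the brighter of its 2 probe sets, which disagreed by mammary stage.

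**Figure D5:**
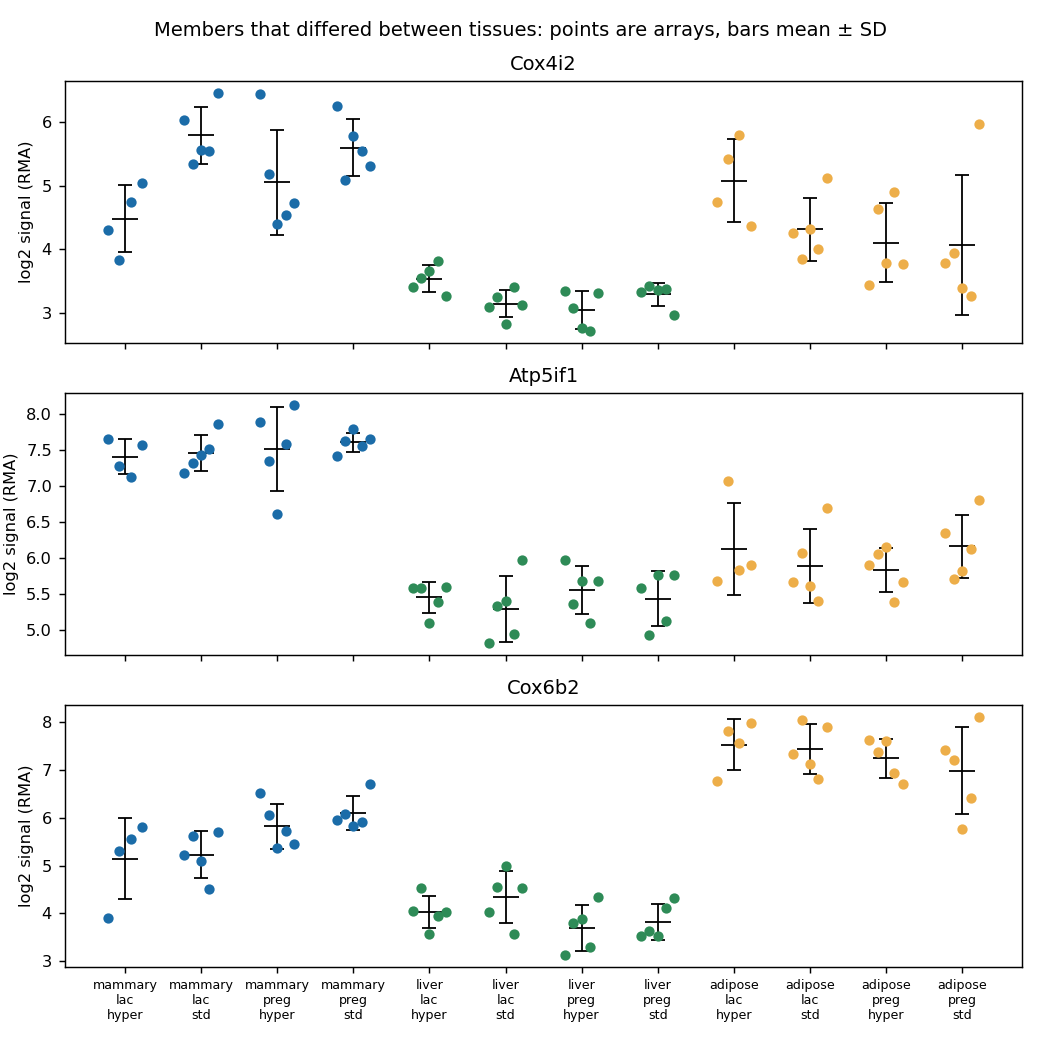
Log2 signal of Cox4i2, Atp5if1 and Cox6b2 on the arrays of all 12 groups of stage and gravity, ordered mammary gland, liver and adipose tissue, with points for arrays and bars for the mean ± SD. At standard gravity Cox4i2 and Atp5if1 have their highest means in mammary gland and Cox6b2 in adipose tissue.

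The stage effect of mammary gland was then set against that of the other tissues at standard gravity. Relative to liver, 16 members had a higher stage effect in mammary gland and 5 a lower one (background 10.6% and 11.4%), and relative to adipose tissue 16 and 5 as well (9.23% and 11.7%). Median differences were 0.16 and 0.26, against -0.06 and -0.09 over all genes. Both contrasts share the mammary arrays. Ndufb8 had 5.41, 5.12, 6.09, 5.94 and 5.42 in lactating mammary gland, 5.77, 5.74, 6.12, 5.44 and 5.60 in lactating liver and 6.10, 6.51, 5.96, 5.81 and 5.19 in lactating adipose tissue. Lactating values of the 3 tissues overlapped, and mammary gland did not differ by the test from liver (log2 -0.14, adjusted p = 0.792) or adipose tissue (-0.32, adjusted p = 0.544). In pregnant rats mammary gland had 5.05, 3.68, 2.90, 4.0 and 3.40, against 5.89, 5.86, 5.67, 5.77 and 5.57 in liver and 5.55, 5.56, 6.23, 6.21 and 6.51 in adipose tissue. Every pregnant mammary array lay below the others, with log2 differences of -1.94 from liver (adjusted p = 7.42e-07) and -2.20 from adipose tissue (adjusted p = 8.12e-08). The stage effects differed by 1.81 from liver (SE 0.45, adjusted p = 0.00209) and by 1.89 from adipose tissue (adjusted p = 0.00146).

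Ndufa13 was also called in both, with a difference of stage effects of 1.94 from liver (SE 0.47, adjusted p = 0.00186) and 1.81 from adipose tissue (adjusted p = 0.00389). Ndufa4 (1.47 and 1.56) and Atp5pb (1.11 and 1.24) were also called in both. Lower stage effects in mammary gland were called in both for Ndufs7 (-1.57 and -1.27), Cox6b2 (-1.38 and -1.33), Cox7a1 (-1.07 and -0.90) and Cox7a2l (-1.01 and -0.85). The Cox7a2l difference from liver had an adjusted p of 4.34e-06. Without the arrays that carried markers of a further tissue, 18 members were called relative to liver and 15 relative to adipose tissue.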

How the data were processed

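RNA was measured on Affymetrix rat arrays. The authors deposited log2 signals per probe set made with RMA, which corrects background, quantile-normalizes arrays and summarises probes, per the submitters' processing notes, whose version is not given and which do not say which arrays were processed together. The labels name TRIzol for mammary gland and liver RNA, an RNeasy Lipid kit for adipose tissue, and NuGEN Ovation Biotin labelling. Platform annotation gave 1 symbol to 20826 probe sets, several to 436 and none to 9780. Gene positions are RefSeq's (GRCr8).

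Groups were compared in R 4.3.3 by limma 3.58.1 (group means, moderated two-sided test), in 1 fit per tissue (19 mammary, 20 liver and 19 adipose arrays), 1 for the 12 arrays of the microgravity set and 1 of 58 arrays between tissues. P-values were adjusted by Benjamini-Hochberg over all 31042 probe sets, and a member is called under 0.05. SE is limma's. The scripts were tested on simulated data. The number of arrays limits the precision.

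The members, lists and comparisons were chosen with earlier results of these data known. Named members were up to 6 called in each direction with the largest change, up to 2 with the smallest p where none was called, tissue isoforms, the inhibitor and succinate dehydrogenase, and up to 4 called genes of each other list. Further members, and the members shared between gravities, were named after their values were seen.

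Alternatives were array weights, an eBayes trend with robust variance, centring, the mean of probe sets, a filter on dim probe sets, only the groups compared, each array left out in turn, without arrays carrying markers of another tissue, with M210H and A210H kept, and a replicate block. Array codes pair tissues of 1 rat, whose arrays had a consensus correlation of 0.097. The letters of the microgravity set did not pair arrays (correlations of deviations from -0.15 to 0.08). Labels do not say that arrays of that set are separate animals, so its p-values measure only the spread between arrays.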

Additional observations from a re-analysis of the deposited data

Results flagged for a closer look

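An array far from the others of its group (Dixon's test) was found in 17 of 240 tests of a group, where chance gives about 1 in 20. The tests share arrays, and means of complexes share genes with single members, so they are not independent and the count is a description. Among muscle isoforms, Cox6a2 was at 8.91 on A217H (others 3.11 to 4.0), 11.56 on A48S (3.09 to 3.53), 5.69 on M212H (3.04 to 3.43) and 7.77 on M50H (3.05 to 3.55), and all 4 arrays carried skeletal muscle markers. Cox8b was at 4.84 on M212H (2.66 to 2.74), 6.94 on M50H (2.88 to 3.12), 4.12 on M44S (2.80 to 3.15), an array with 9 of 16 muscle markers above its median, and 3.95 on L50H (2.75 to 3.01). In pregnant liver in hypergravity, L59H had the lowest mean of complex IV, 7.61, against 7.79 to 7.81 on the others, with Cox6a1 at 10.45 (10.65 to 10.72) and Cox6b1 at 10.17 (10.68 to 10.76). Cox4i2 was at 5.97 on A57S (3.26 to 3.94) and at 2.96 on L57S (3.33 to 3.42). Cox6b2 was at 6.71 on M57S (5.83 to 6.07). Cox7a2l was at 10.38 on A217H (10.18 to 10.21) and 10.66 on A60H (10.45 to 10.49). Atp5if1 was at 7.07 on A206H (5.67 to 5.90).

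The stage effect at standard gravity differed by limma's interaction contrast for 21 members between mammary gland and liver and for 21 members between mammary gland and adipose tissue, and both sets share the mammary arrays.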

How the results depend on the processing

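Counts are members called out of 84. Array weights gave 45 for mammary stage at standard gravity (29 as reported), 14 for hypergravity in lactating mammary gland (4), 1 for the difference of mammary stage effects between gravities (0), 2 for liver stage in hypergravity (0), 1 for microgravity against vivarium (0), 22 for mammary gland against adipose tissue in lactating rats (12), 26 for liver against adipose tissue in lactating rats (15) and 32 for mammary minus liver stage effects (21). Fits of only the groups compared gave 9 for mammary stage in hypergravity (28), 11 for hypergravity in lactating mammary gland, 25 for lactating mammary gland against liver (16), 19 against adipose tissue and 32 for mammary minus liver stage effects. With M210H and A210H kept, hypergravity in lactating mammary gland gave 2, mammary stage 25 at standard gravity and 25 in hypergravity. The difference of stage effects between gravities gave 1 when centred and 1 with the mean of probe sets. Liver stage in hypergravity gave 2 with trend and robust variance, 1 when centred, 3 with the mean of probe sets and 1 without dim probe sets. Ndufa7 between pregnant mammary gland and adipose tissue changed sign with the mean of probe sets, to -0.45 (adjusted p = 0.137), against 0.60 as reported, because its probe sets differ. Leaving out 1 array gave 21 to 34 for mammary stage at standard gravity, 16 to 41 in hypergravity, 1 to 4 for hypergravity in lactating mammary gland, 0 to 2 for the difference of stage effects, 0 to 2 for liver stage in hypergravity, 13 to 15 and 39 to 45 for mammary gland against liver in lactating and pregnant rats, 9 to 13 and 30 to 40 against adipose tissue, 10 to 16 and 14 to 17 for liver against adipose tissue, 15 to 28 for mammary minus liver and 16 to 26 for mammary minus adipose stage effects, and 0 elsewhere. With rat as replicate block the tissue counts were 16, 14 and 18 in lactating and 43, 39 and 17 in pregnant rats, and 23 and 22 for the differences of stage effects. The letter as replicate block gave 0 in the 3 comparisons of the microgravity set, and no pairing changed another call by over 1.5 times. For changes not explained by the setting itself, the cause was not tested. Signal over background limits Cox7a1, Cox8b, Cox4i2, Cox6b2 and Ndufb8, whose values are partly under the array median. The same holds for Nrf1 and Ppargc1a. Some genes have probe sets that disagree: by mammary stage at standard gravity Uqcrc2 had 0.21 on the probe set used and 2.14 on the other, Ndufa7 0.03 and 2.25, Sdhd -0.26 and 0.58, and Atp5po -0.46 and 0.61. Sdhaf2 had -0.77 on the probe set used and -0.08 on the other.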
